A study of Mus musculus with 12 samples.

Results

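The comparison set astrocytes from neonatal mice that had been kept on brain sections of APdE9 mice against astrocytes from the same kind of culture kept on wild-type sections. It sets 6 arrays, of 12 in the series, against each other by their titles: 3 of neonatal cells on APdE9 sections and 3 on wild-type sections. The other 6 arrays hold adult cells (mice of 6 to 8 weeks) on the same kinds of section, and the spread behind each test was estimated from all 12. Both neonatal groups held cortical and hippocampal astrocytes of the C57Bl/6j strain that expressed eGFP, a green fluorescent marker. The treatment protocol puts the age of these mice at 3 d and the growth protocol at 2 days. Neonatal cells were grown in DMEM without G5 supplement and isolated without Percoll, while adult cells had both G5 and Percoll, so culture conditions and age cannot be told apart. The APdE9 sections came from mice with chimeric mouse/human APPSwe and PS1-dE9 transgenes, each driven by its own mouse prion protein promoter. The wild-type sections came from C57Bl/6j littermates. Cells stayed on a section for 22 h, were loosened with trypsin, and were picked by suction under fluorescence. Samples were pooled (n = 3) before RNA isolation, and the p-values given cover the variation among these pools alone, some of which may be technical.

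Plaques in the APdE9 brain are extracellular deposits of amyloid beta peptide, cut from the amyloid precursor protein by secretases, and astrocytes meet them together with microglia. Astrocytes supply much of the brain's cholesterol, made from acetyl-CoA through the mevalonate pathway under the control of the SREBP transcription factors, and pass it on in apolipoprotein E particles. When they react to injury or amyloid they usually raise glial fibrillary acidic protein and immune genes.

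Values were Affymetrix signals on a scale taken as log2, centred so that each probe set has a median of 0 across the 12 arrays. A value shows whether an array lies above or below that middle and not how strongly a gene is expressed. A gene is called here when its adjusted p from limma, a linear model fitted across all genes, was below 0.05. Of 18193 genes, 220 (1.21%) were called higher on APdE9 sections and 464 (2.55%) lower, 3.76% in all. When the spread was estimated from the 6 neonatal arrays alone, 272 genes were called (86 higher and 186 lower), 261 of them among the 684. With the replicate number as a block, which sets each APdE9 array against the wild-type array of the same number, 1013 genes were called, 681 of them among the 684. Among them, 31 of the higher and 47 of the lower genes differed by more than 1 on the log2 scale, a doubling, and the median size was 0.61 and 0.57. The 3 arrays of one group lay all above those of the other in 1330 genes (7.31%) for APdE9 and all below in 1889 (10.4%). All called genes were among these except Rasl11a, which fell and is named for this overlap after its values were seen. A lack of overlap in a called gene is therefore no further evidence. At the level of probe sets, 901 of 45037 (2.00%) were called in either direction. Arrays of one neonatal group correlated between 0.515 and 0.756, lowest for wild-type replicates 1 and 3, and in 47.1% of probe sets the middle wild-type array was replicate 2. Without that array 263 genes were called, 261 of them again among the 684, and 411 and 436 were called without APdE9 replicate 1 and replicate 2. Over the 12 fits that each left out 1 array, 246 genes kept their call in all of them, 73 higher and 173 lower. The 3′ minus 5′ signal of the Gapdh control probe sets ranged from 0.06 to 0.21 on wild-type and from -0.11 to 0.10 on APdE9 arrays, and that of Actb from -0.06 to 0.06 and from 0.02 to 0.16.

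**Figure D1:**
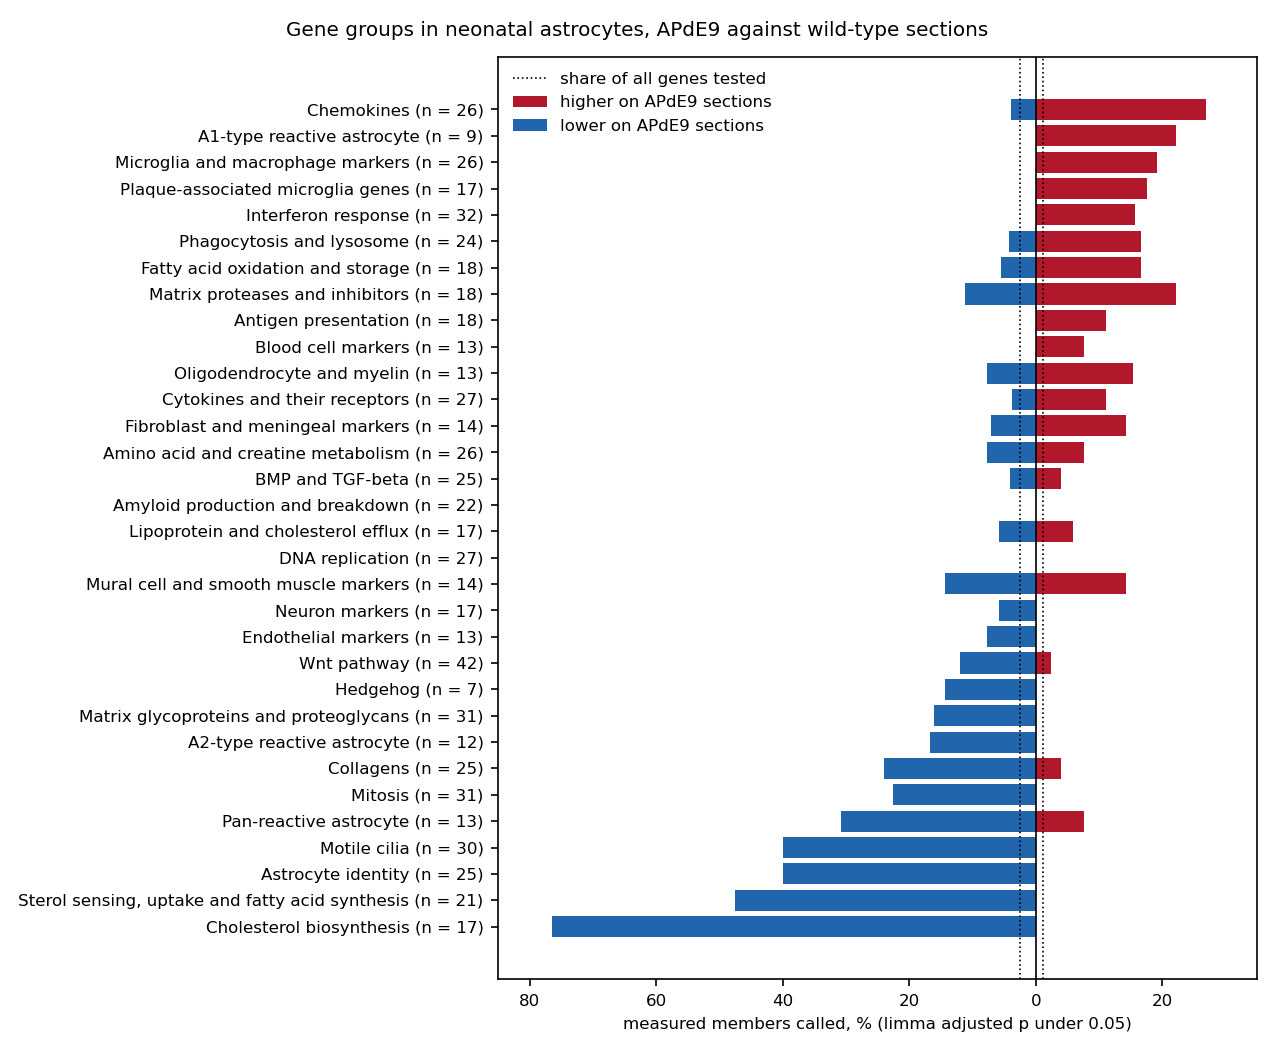
Share of the measured members of 32 gene groups that were called lower (blue, to the left) or higher (red, to the right) in neonatal astrocytes on APdE9 against wild-type sections. Dotted lines mark the shares over all 18193 genes, 1.21% higher and 2.55% lower; cholesterol biosynthesis has 13 of 17 members on the lower side and chemokines 7 of 26 on the higher side.

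The largest rises on APdE9 sections were in Slfn4, a schlafen gene induced by interferon in myeloid cells, and Ccl12, a chemokine that draws monocytes. Slfn4 read 0.33, 0.37 and 1.19 on wild-type sections and 2.86, 2.48 and 3.31 on APdE9 sections (replicates 1 to 3 in each group, as in all such lists that follow), a 4.76-fold rise with a log2 difference of 2.25 (SE 0.24, adjusted p = 0.000494). Ccl12 read 0.95, 1.35 and 1.12 on wild-type sections and 3.34, 2.84 and 3.62 on APdE9 sections, with a difference of 2.13 (SE 0.28, adjusted p = 0.00175). The lowest APdE9 array lay well above the highest wild-type array for both genes. AA467197 rose by 2.04 (SE 0.15, adjusted p = 3.06e-05), with values of 0.34, -0.14 and -0.22 on wild-type sections and 2.13, 1.84 and 2.14 on APdE9 sections. Cst7 encodes cystatin F, an inhibitor of lysosomal proteases that microglia near plaques express, and read 1.03, 0.96 and 0.59 on wild-type sections and 2.74, 2.55 and 2.56 on APdE9 sections. Its difference was 1.76 (SE 0.20, adjusted p = 0.000665), and no array of one group reached those of the other. Abcb1a, the efflux pump P-glycoprotein, read -1.52, -2.30 and -1.90 on wild-type sections and 0.08, -0.05 and -0.64 on APdE9 sections. Abcb1a rose by 1.70 (SE 0.21, adjusted p = 0.00101). Gatm makes guanidinoacetate, the precursor of creatine, and read 2.42, 1.56 and 1.75 on wild-type sections and 3.47, 3.52 and 3.72 on APdE9 sections. Gatm rose by 1.66 (SE 0.20, adjusted p = 0.000906). The wild-type arrays of Gatm spread over a wider range than the APdE9 arrays, with replicate 1 the highest of them.

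Il33, an alarmin cytokine stored in glial nuclei, read -1.64, -1.59 and -1.07 on wild-type sections and 0.18, 0.34 and 0.11 on APdE9 sections, a 3.12-fold rise (1.64, SE 0.13, adjusted p = 7.5e-05). The APdE9 arrays of Il33 lay within a narrow band and wild-type replicate 3 was the nearest to them. Receptors and signalling genes of immune cells followed in size. Il7r, the interleukin-7 receptor, rose by 1.30 (SE 0.14, adjusted p = 0.000463). Cd300lf, an inhibitory receptor of myeloid cells, rose by 1.51 (SE 0.23, adjusted p = 0.00404), and Cd244a, a SLAM family receptor, by 1.16 (SE 0.10, adjusted p = 9.72e-05). The 2 probe sets of Cd244a differed by 0.33 and 1.99, and 1 of them was called. Arg1, the arginase that turns arginine into ornithine, read 1.61, 1.30 and 1.46 on wild-type sections and 2.72, 2.72 and 2.58 on APdE9 sections. Arg1 rose by 1.22 (SE 0.10, adjusted p = 0.000101), with the highest wild-type array more than 0.9 below the lowest APdE9 array. Ms4a4c, a four-span membrane protein gene of myeloid cells, rose by 1.18 (SE 0.19, adjusted p = 0.00565) and Cbr2, a carbonyl reductase, by 1.12 (SE 0.13, adjusted p = 0.000886). The remaining members of the 20 largest rises were Themis2 (1.26, adjusted p = 0.0119), Mx1 (1.22, adjusted p = 0.0215), AW112010 (1.13, adjusted p = 0.0103), Cyth4 (1.12, adjusted p = 0.0246), Ly86 and Ccl6, described with their groups, and Mbp. In fits that left out 1 of the 12 arrays the call was lost for Themis2 in 1 fit (adjusted p = 0.0662 without wild-type replicate 2, 0.0666 with the neonatal arrays alone), Mx1 in 4 fits (adjusted p up to 0.0966 without wild-type replicate 2), AW112010 in 1 fit (adjusted p = 0.061 without wild-type replicate 2) and Cyth4 in 5 fits (adjusted p up to 0.116 without wild-type replicate 2).

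**Figure D2:**
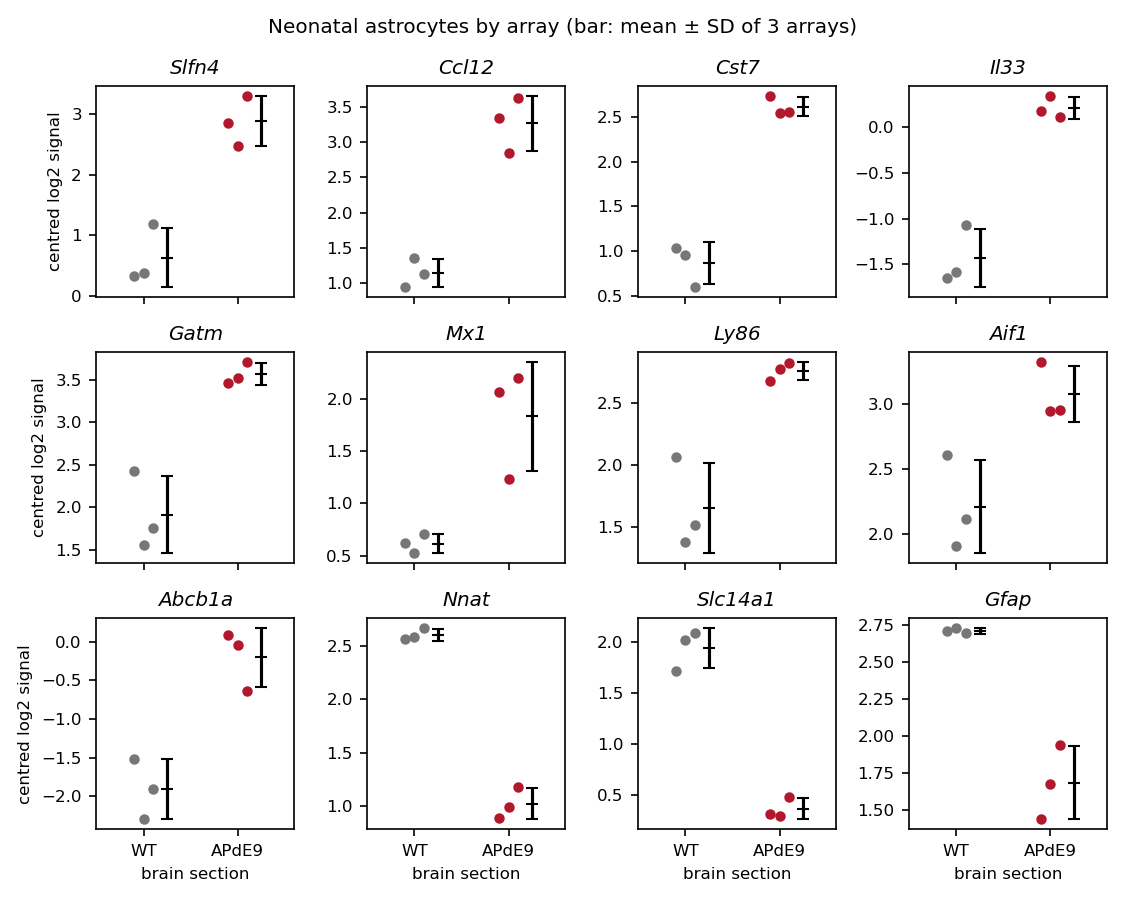
Centred log2 signal of 12 genes on each of the 3 wild-type (grey) and 3 APdE9 (red) neonatal arrays, with mean ± SD beside the points; each panel has its own vertical scale. In the first 9 panels every red point lies above every grey point, and in those of Nnat, Slc14a1 and Gfap every red point lies below. All called genes except Rasl11a had such a gap, so it is no further evidence.

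The largest falls on APdE9 sections were in Nnat, an imprinted gene for the membrane proteolipid neuronatin, and Slc14a1, the urea transporter UT-B of astrocytes. Nnat read 2.56, 2.59 and 2.67 on wild-type sections and 0.89, 0.99 and 1.18 on APdE9 sections, a 3.01-fold fall (-1.59, SE 0.11, adjusted p = 3.06e-05). Slc14a1 read 1.72, 2.02 and 2.09 on wild-type sections and 0.32, 0.29 and 0.48 on APdE9 sections, with a difference of -1.58 (SE 0.11, adjusted p = 3.06e-05). In both genes the spread within a group was small beside the gap between groups. Itih3, an inter-alpha-trypsin inhibitor heavy chain that binds hyaluronan, read 2.00, 2.14 and 2.06 on wild-type sections and 0.61, 0.62 and 0.67 on APdE9 sections, with a difference of -1.43 (SE 0.09, adjusted p = 2.5e-05), the smallest adjusted p of the genes described. Psd2, an exchange factor for the small GTPase ARF6, differed by -1.47 (SE 0.19, adjusted p = 0.00148) and Cdsn, the adhesion protein corneodesmosin, by -1.49 (SE 0.13, adjusted p = 0.000101). Slc25a18, a mitochondrial glutamate carrier, read 2.71, 2.69 and 2.75 on wild-type sections and 1.44, 1.52 and 1.70 on APdE9 sections, and fell by 1.16 (SE 0.08, adjusted p = 3.06e-05) in which each group again kept to a narrow band.

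Protease inhibitors were also among the 20 largest falls. Serpina3n, a serine protease inhibitor and a usual marker of reactive astrocytes, read 2.65, 2.63 and 2.34 on wild-type sections and 1.10, 1.43 and 1.44 on APdE9 sections. Serpina3n fell by 1.21 (SE 0.12, adjusted p = 0.000278). A2m, the broad protease trap alpha-2-macroglobulin, read 3.19, 3.39 and 3.17 on wild-type sections and 1.98, 2.07 and 2.11 on APdE9 sections. A2m fell by 1.20 (SE 0.11, adjusted p = 0.000208). Both were lower on every APdE9 array than on any wild-type array, as the choice of the 20 required. Qprt, which clears the excitotoxin quinolinic acid, differed by -1.21 (SE 0.19, adjusted p = 0.00461). Tmtc1, an O-mannosyltransferase of the endoplasmic reticulum, differed by -1.25 (SE 0.14, adjusted p = 0.000802) and Elobl, a relative of elongin B, by -1.37 (SE 0.21, adjusted p = 0.00365). Depdc1a, a gene of dividing cells, differed by -1.32 (SE 0.31, adjusted p = 0.0346), and its call was lost in 5 fits (adjusted p up to 0.132 without wild-type replicate 2).

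Genes of cholesterol synthesis were lower along most of the pathway. Of 17 measured biosynthesis genes, 13 were called lower and 0 higher, all 17 differences were below 0, and the median was -0.67 against 0.00 over all genes. The 3 APdE9 arrays lay below the 3 wild-type arrays in 16 of the 17. From early to late in the pathway, Hmgcs1 makes HMG-CoA, Mvd makes isopentenyl pyrophosphate, Idi1 isomerises it, Sqle oxidises squalene, Lss closes the sterol ring, Cyp51 and Nsdhl remove methyl groups and Dhcr7 makes cholesterol itself. Promoters of 4 of them are shown. Idi1, Cyp51 and Mvd were the called genes with the largest changes, and Hmgcs1 was added because its promoter held the sterol regulatory element core CACCCCAC. The windows of 120 bases, all before the start site, come from RefSeq on GRCm38.p6 and read 5′ to 3′ on the gene's strand. Capitals mark the CCAAT box (CCAAT, or ATTGG on the other strand) and, in Hmgcs1, CACCCCAC.
Idi1, chr13:8885477-8885596, plus strand: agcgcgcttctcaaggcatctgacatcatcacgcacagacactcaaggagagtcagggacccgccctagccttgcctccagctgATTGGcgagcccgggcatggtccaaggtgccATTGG
Cyp51, chr5:4104722-4104841, minus strand: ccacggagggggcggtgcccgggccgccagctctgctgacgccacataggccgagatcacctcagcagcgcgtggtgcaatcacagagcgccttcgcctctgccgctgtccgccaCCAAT
Mvd, chr8:122443445-122443564, minus strand: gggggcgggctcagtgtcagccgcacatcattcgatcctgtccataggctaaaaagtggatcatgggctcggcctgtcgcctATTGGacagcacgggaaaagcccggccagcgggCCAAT
Hmgcs1, chr13:119690103-119690222, plus strand: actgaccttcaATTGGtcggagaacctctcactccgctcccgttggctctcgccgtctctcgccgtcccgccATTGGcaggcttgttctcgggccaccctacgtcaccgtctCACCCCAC
Searched on both strands from 250 bases before to 50 after the start, CCAAT was present in 14 of the 14 measured biosynthesis genes with a promoter in the table, against 42% of 14452 measured genes with one, 10 of the 14 being called. CACCCCAC was present in 1 of the 14, Hmgcs1, against 3.76%. Only this exact sequence was searched, so variant forms of the element were not counted.

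Idi1 read 0.95, 0.76 and 0.11 on wild-type sections and -0.22, -1.02 and -1.14 on APdE9 sections, a 2.64-fold fall (-1.40, SE 0.25, adjusted p = 0.00991). Cyp51 read 0.62, 0.32 and -0.12 on wild-type sections and -0.56, -1.04 and -1.12 on APdE9 sections. Cyp51 fell by 1.18 (SE 0.21, adjusted p = 0.00938). In both, APdE9 replicate 1 was the highest array of its group and wild-type replicate 3 the lowest of its own, and the groups did not overlap. Mvd read 0.47, 0.34 and -0.04 on wild-type sections and -0.64, -1.07 and -0.90 on APdE9 sections, and fell by 1.13 (SE 0.16, adjusted p = 0.0031), and Sqle read 0.60, 0.64 and 0.24 on wild-type sections and -0.24, -0.57 and -0.62 on APdE9 sections. Sqle fell by 0.97 (SE 0.14, adjusted p = 0.00266). Again APdE9 replicate 1 and wild-type replicate 3 lay closest to the other group. Hmgcs1 fell by 0.91 (adjusted p = 0.0104), Nsdhl fell by 0.88 (0.00823), Dhcr7 fell by 0.82 (0.00544) and Lss fell by 0.68 (0.00315). The probe sets of Lss ranged from -1.16 to 0.03. Pmvk, Fdps, Tm7sf2, Sc5d and Fdft1 were called with smaller differences, and Hsd17b7, Mvk, Msmo1 and Ebp were not called. Between 9 and 14 members were called when 1 array was left out, and without wild-type replicate 2 the call was lost for Idi1 (adjusted p = 0.057, and 0.058 with the neonatal arrays alone) and Hmgcs1 (0.0628).

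Genes that sense or carry sterols and make fatty acids were lower as well: 10 of 21 were called lower and 0 higher, with a median of -0.41. Srebf2, the master transcription factor of cholesterol synthesis, read 0.14, 0.06 and 0.16 on wild-type sections and -0.39, -0.29 and -0.30 on APdE9 sections. Srebf2 fell by 0.45 (SE 0.08, adjusted p = 0.0065), small in size but with no overlap between groups. Stard4, which moves cholesterol between membranes, read 0.74, 0.71 and 0.16 on wild-type sections and -0.31, -0.77 and -0.75 on APdE9 sections. Stard4 fell by 1.15 (SE 0.18, adjusted p = 0.00511). Fads2, the delta-6 desaturase of polyunsaturated fatty acids, read 1.42, 1.31 and 1.09 on wild-type sections and 0.08, 0.60 and 0.02 on APdE9 sections, and fell by 1.04 (SE 0.14, adjusted p = 0.0022). For Fads2 the APdE9 replicate 2 lay nearest to the wild-type arrays. Fasn, fatty acid synthase, differed by -0.96 (SE 0.18, adjusted p = 0.0104), Acss2, the cytosolic acetyl-CoA synthetase, by -0.58 (SE 0.13, adjusted p = 0.0334) and Srebf1, the SREBP of fatty acid synthesis, by -0.57 (SE 0.12, adjusted p = 0.0256). Fads1 (-0.54, adjusted p = 0.0286) and Elovl5 (-0.44, adjusted p = 0.045) act beside Fads2 on long-chain fatty acids. Insig1, which holds SREBPs in the endoplasmic reticulum when sterol is plentiful, read 0.78, 0.46 and -0.03 on wild-type sections and -0.11, -0.56 and -1.34 on APdE9 sections and was not called (-1.08, SE 0.28, adjusted p = 0.054, 0.00523 with the replicate block). CCAAT was present in 12 of the 17 promoters of this group and the exact sequence CACCCCAC in 0. With 1 array left out 3 to 10 members were called, 3 without wild-type replicate 2 and 5 without wild-type replicate 3 or APdE9 replicate 2, while 4 were called with the 6 neonatal arrays alone, and the call was lost for Fasn in 1 fit (adjusted p = 0.0557 without wild-type replicate 2), Acss2 in 6 fits (adjusted p up to 0.124 without APdE9 replicate 2, 0.0541 with the neonatal arrays alone), Srebf1 in 4 fits (adjusted p up to 0.105 without wild-type replicate 2, 0.0658 with the neonatal arrays alone), Fads1 in 4 fits (adjusted p up to 0.128 without wild-type replicate 2, 0.0523 with the neonatal arrays alone) and Elovl5 in 8 fits (adjusted p up to 0.191 without wild-type replicate 2, 0.064 with the neonatal arrays alone).

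**Figure D3:**
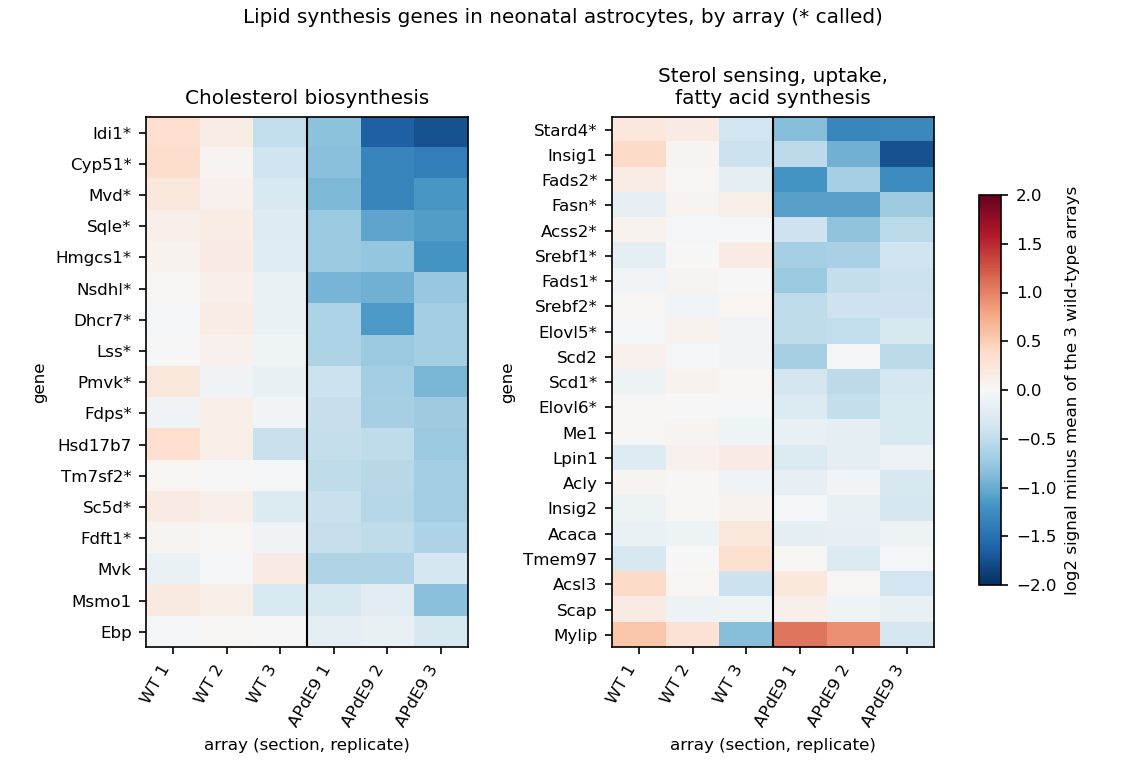
Colour shows, for each gene and neonatal array, the log2 signal minus the mean of the 3 wild-type arrays (blue lower, red higher), for cholesterol biosynthesis and for sterol sensing, uptake and fatty acid synthesis; asterisks mark called genes. The 3 APdE9 columns are blue for the 13 called genes on the left and the 10 on the right, while Mylip, at the bottom right, varies between arrays of both groups.

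Among 17 genes of lipoproteins and cholesterol efflux, 1 was called higher and 1 lower, and the median was -0.01. Abcg1, a sterol exporter, read 0.78, 0.46 and 0.73 on wild-type sections and 1.64, 1.35 and 1.31 on APdE9 sections. Abcg1 rose by 0.78 (SE 0.16, adjusted p = 0.0166). Lcat, which esterifies cholesterol on lipoproteins, read 1.48, 1.42 and 1.24 on wild-type sections and 0.73, 0.72 and 0.68 on APdE9 sections. Lcat fell by 0.67 (SE 0.10, adjusted p = 0.00328). Neither gene's groups overlapped. Apoe, the main lipoprotein of astrocytes, read 1.02, 0.90 and 0.80 on wild-type sections and 0.56, 0.67 and 0.69 on APdE9 sections and was not called (-0.26, SE 0.09, adjusted p = 0.183), nor were the exporter Abca1 (0.26, adjusted p = 0.398) and Nr1h3, the sterol receptor LXR-alpha (-0.28, adjusted p = 0.226). Fatty acid oxidation and storage genes had 3 of 18 called higher and 1 lower, with a median of -0.08. The 3 higher were Angptl4, an inhibitor of lipoprotein lipase (1.04, SE 0.19, adjusted p = 0.0105), Pdk4, which turns cells from glucose to fat (0.85, SE 0.20, adjusted p = 0.0372), and the lipid droplet coat Plin2 (0.35, SE 0.07, adjusted p = 0.0211). Bdh1, which makes and uses the ketone hydroxybutyrate, fell by 0.66 (SE 0.08, adjusted p = 0.00115). Cpt1a, the gate of fatty acid entry into mitochondria, differed by 0.13 (adjusted p = 0.67), and the dehydrogenase Acadm by -0.27 (adjusted p = 0.114). In fits without 1 array the call was lost for Abcg1 in 2 fits (adjusted p up to 0.0929 without wild-type replicate 2), Angptl4 in 1 fit (adjusted p = 0.0534 without wild-type replicate 2, 0.0575 with the neonatal arrays alone), Pdk4 in 8 fits (adjusted p up to 0.135 without wild-type replicate 2, 0.098 with the neonatal arrays alone) and Plin2 in 5 fits (adjusted p up to 0.115 without wild-type replicate 2, 0.104 with the neonatal arrays alone).

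Markers of astrocytes themselves were lower on APdE9 sections: 10 of 25 measured were called lower and 0 higher, with a median of -0.37, and 17 of the 25 had all APdE9 arrays below all wild-type arrays. Averaged over the 25 genes, the arrays gave 0.93, 1.02 and 0.93 on wild-type sections and 0.48, 0.50 and 0.51 on APdE9 sections. The label of the cells could not be checked by level, since the values are centred. Gfap lay above its middle over the 12 arrays on each of the 6 neonatal arrays, but so did the microglial marker Aif1. The astrocyte markers Gjb6 and Aldh1l1 lay below theirs on the 3 APdE9 arrays, so such positions do not identify the cells. Gfap, the intermediate filament that names astrocytes, read 2.71, 2.73 and 2.69 on wild-type sections and 1.44, 1.68 and 1.94 on APdE9 sections, a 2.03-fold fall (-1.02, SE 0.11, adjusted p = 0.000608). The 3 wild-type arrays of Gfap lay within 0.04 of one another, and the highest APdE9 array stayed 0.75 below them. Aldoc, a glycolytic aldolase of astrocytes, read 2.85, 2.96 and 2.83 on wild-type sections and 1.70, 1.95 and 1.85 on APdE9 sections. Aldoc fell by 1.05 (SE 0.08, adjusted p = 3.7e-05). Aqp4, the water channel of astrocyte endfeet, read 2.04, 1.88 and 1.80 on wild-type sections and 1.21, 1.19 and 1.10 on APdE9 sections, and fell by 0.74 (SE 0.08, adjusted p = 0.000516). Neither gene's groups came near each other. Mlc1 (-0.71, SE 0.09, adjusted p = 0.00146) and Hepacam (-0.70, SE 0.13, adjusted p = 0.0135) form an endfoot membrane complex, and Gjb6 is the gap junction protein connexin 30 (-0.56, SE 0.12, adjusted p = 0.0227). Aldh1l1, a folate enzyme widely used to mark astrocytes, fell by 0.50 (SE 0.08, adjusted p = 0.00542). The glutamate transporter Slc1a3 was not called (-0.37, SE 0.09, adjusted p = 0.054, 0.0286 with the replicate block) and Glul, glutamine synthetase, differed by -0.22 (SE 0.08, adjusted p = 0.165). In these pooled cells a smaller share of astrocytes and less RNA of a gene per astrocyte cannot be told apart. Without 1 array between 8 and 10 members were called, and the call was lost for Hepacam in 3 fits (adjusted p up to 0.0756 without wild-type replicate 2) and Gjb6 in 4 fits (adjusted p up to 0.0802 without APdE9 replicate 1, 0.0544 with the neonatal arrays alone).

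Genes used to mark reactive astrocytes went both ways. Of 13 pan-reactive genes, 4 were called lower (Serpina3n and Gfap, given above, with Aspg and S1pr3) and 1 higher (Timp1), and the median was -0.12. Lcn2, lipocalin 2, a strong marker of reactive glia, read 2.47, 2.71 and 2.50 on wild-type sections and 2.45, 2.50 and 2.51 on APdE9 sections, with the groups overlapping (-0.08, SE 0.14, adjusted p = 0.914). Timp1, an inhibitor of matrix metalloproteinases, read -0.64, -0.46 and -0.23 on wild-type sections and 0.04, 0.00 and 0.11 on APdE9 sections. Timp1 rose by 0.49 (SE 0.11, adjusted p = 0.0251). S1pr3, a receptor of sphingosine 1-phosphate, fell by 0.63 (SE 0.12, adjusted p = 0.0159), and the asparaginase Aspg fell by 0.90 (SE 0.22, adjusted p = 0.039). Of 9 measured genes of the A1 type, described after inflammatory stimuli, 2 were called higher: the guanylate-binding protein Gbp2 (0.70, SE 0.13, adjusted p = 0.0117) and the immunoproteasome subunit Psmb8 (0.52, SE 0.13, adjusted p = 0.0431). The complement inhibitor Serping1 (-0.01, adjusted p = 0.99) and the MHC gene H2-D1 (0.06, adjusted p = 0.836) were not called. Of 12 genes of the A2 type, described after ischaemia, 2 were called lower: Ptx3, the pattern receptor pentraxin 3 (-0.79, SE 0.14, adjusted p = 0.0105, 0.0603 with the neonatal arrays alone), and Cd109, a co-receptor of TGF-beta (-0.52, SE 0.12, adjusted p = 0.0289). S100a10, a partner of annexin A2, differed by 0.01 (adjusted p = 0.997). In fits without 1 array the call was lost for Aspg in 8 fits (adjusted p up to 0.145 without APdE9 replicate 2), S1pr3 in 3 fits (adjusted p up to 0.0816 without wild-type replicate 2, 0.0889 with the neonatal arrays alone), Timp1 in 5 fits (adjusted p up to 0.106 without wild-type replicate 2, 0.0901 with the neonatal arrays alone), Gbp2 in 1 fit (adjusted p = 0.0506 without wild-type replicate 2), Psmb8 in 8 fits (adjusted p up to 0.152 without APdE9 replicate 1, 0.12 with the neonatal arrays alone) and Cd109 in 6 fits (adjusted p up to 0.0873 without APdE9 replicate 3).

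Genes of motile cilia, which ependymal cells use to move fluid, were lower: 12 of 30 were called lower and 0 higher, 27 differences were below 0 and the median was -0.32. Rsph4a, a radial spoke head protein, read 1.83, 2.25 and 1.62 on wild-type sections and 0.00, 0.64 and 0.67 on APdE9 sections, a 2.76-fold fall (-1.46, SE 0.20, adjusted p = 0.0022). Ccdc40, which sets the repeat of the ciliary axoneme, read 1.15, 1.26 and 0.91 on wild-type sections and -0.06, 0.22 and 0.26 on APdE9 sections. Ccdc40 fell by 0.97 (SE 0.12, adjusted p = 0.00106). Tppp3, a tubulin-binding protein, read 0.81, 0.99 and 0.67 on wild-type sections and 0.04, 0.02 and 0.03 on APdE9 sections. Tppp3 fell by 0.79 (SE 0.09, adjusted p = 0.000883). The APdE9 arrays of Tppp3 were almost equal, and in none of the 3 genes did the groups overlap. Foxj1, the transcription factor that switches on motile cilia, read 0.81, 1.38 and 1.16 on wild-type sections and 0.35, 0.51 and 0.64 on APdE9 sections, and fell by 0.62 (SE 0.14, adjusted p = 0.0334). Dynein and tubule proteins followed, with Dnali1 at -0.74 (SE 0.11, adjusted p = 0.00322), Dynlrb2 at -0.85 (SE 0.17, adjusted p = 0.0146) and the tektin Tekt1 at -0.74 (SE 0.15, adjusted p = 0.0191). Zmynd10, which assembles dynein arms, fell by 0.72 (SE 0.15, adjusted p = 0.0173). The heavy chain Dnah5 was not called (-0.09, adjusted p = 0.873). The 30 genes averaged 0.49, 0.58 and 0.36 on wild-type sections and 0.05, 0.11 and 0.14 on APdE9 sections. The X-box, the motif bound by RFX factors of ciliated cells, was found in 5 of 24 promoters of the group (20.8%) against 2.04% of measured genes with a promoter, and in 1 of the 9 called members with a promoter, Dynlrb2. Without 1 array 5 to 12 members were called, 5 without wild-type replicate 2 and 7 without APdE9 replicate 1 or replicate 2, while 6 were called with the 6 neonatal arrays alone, and the call was lost for Dynlrb2 in 1 fit (adjusted p = 0.0819 without wild-type replicate 2, 0.0641 with the neonatal arrays alone), Tekt1 in 4 fits (adjusted p up to 0.0966 without wild-type replicate 2, 0.0583 with the neonatal arrays alone), Zmynd10 in 4 fits (adjusted p up to 0.074 without APdE9 replicate 1) and Foxj1 in 6 fits (adjusted p up to 0.158 without wild-type replicate 2, 0.102 with the neonatal arrays alone).

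**Figure D4:**
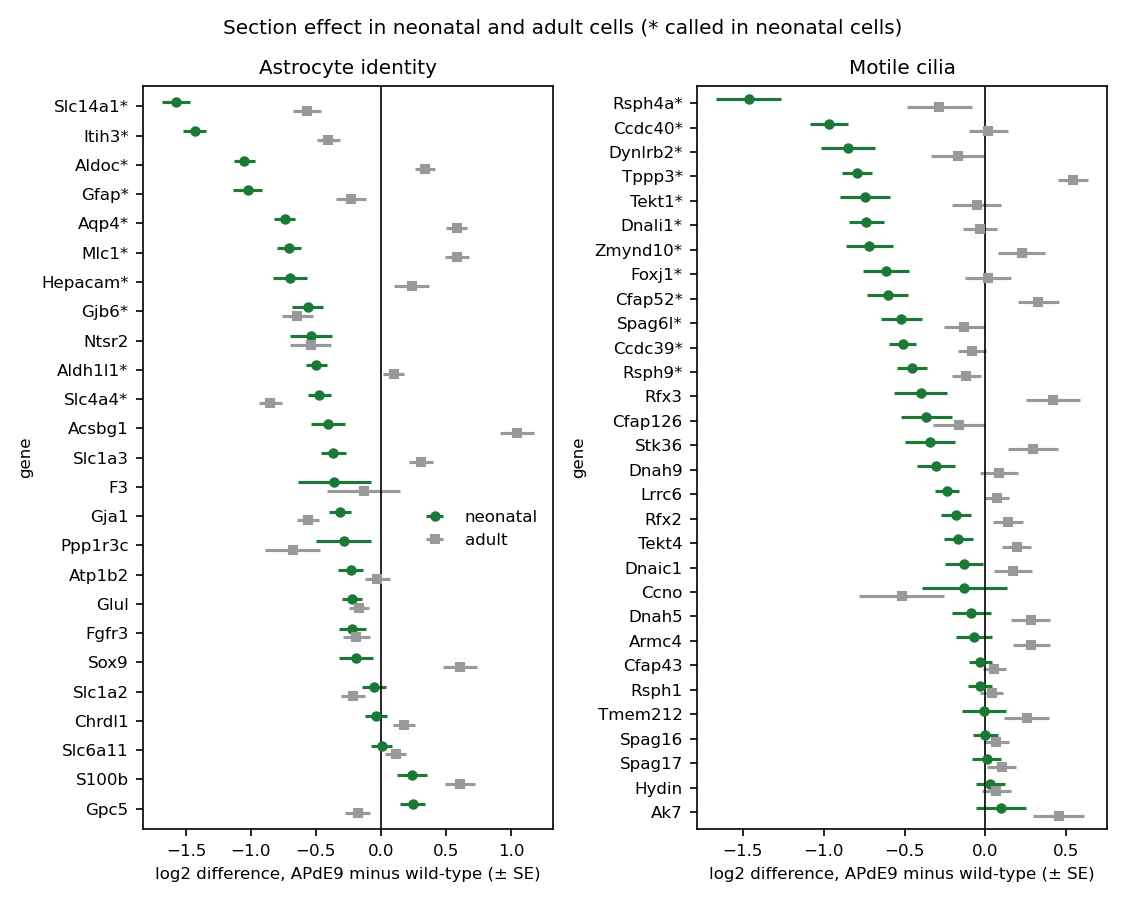
Log2 difference between APdE9 and wild-type sections (± SE of the limma fit, 3 arrays a group) for astrocyte identity and motile cilia genes in neonatal (green circles) and adult (grey squares) cells; asterisks mark genes called in neonatal cells. Green points lie left of 0 for 22 of 25 astrocyte genes and 27 of 30 cilia genes, while adult points scatter on both sides.

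Genes of mitosis were lower on APdE9 sections: 7 of 31 were called and all 31 differences were below 0, with a median of -0.64, and in 24 of them the APdE9 arrays lay below every wild-type array. Plk1, a kinase that drives the assembly of the spindle, read 0.47, 0.73 and 1.46 on wild-type sections and -0.39, -0.34 and -0.48 on APdE9 sections, a 2.45-fold fall (-1.29, SE 0.24, adjusted p = 0.0105). Cdc20, which activates the anaphase-promoting complex, read 0.51, 0.85 and 1.42 on wild-type sections and -0.21, -0.33 and -0.13 on APdE9 sections. Cdc20 fell by 1.15 (SE 0.23, adjusted p = 0.0169). Kif20a, a kinesin of cytokinesis, read 0.26, 0.65 and 1.32 on wild-type sections and -0.26, -0.40 and -0.35 on APdE9 sections. Kif20a fell by 1.08 (SE 0.25, adjusted p = 0.0328). In all 3 genes the wild-type arrays spread widely, replicate 3 the highest and replicate 1 the lowest, while the APdE9 arrays were close together. Ube2c, the ubiquitin-conjugating enzyme of the anaphase-promoting complex, differed by -1.05 (SE 0.25, adjusted p = 0.0403), and the centrosomal kinases Nek2 by -0.53 (SE 0.10, adjusted p = 0.0147) and Aurka by -0.47 (SE 0.11, adjusted p = 0.0408). Cenpf, a kinetochore protein, fell by 0.42 (SE 0.10, adjusted p = 0.0425). Its 3 probe sets ranged from -0.92 to -0.12 and none of them was called. With the median of the probe sets in place of the mean, Cenpf was not called (limma adjusted p = 0.232). Mki67, the usual proliferation marker, was not called (-0.73, SE 0.20, adjusted p = 0.0726, 0.0132 with the replicate block). The 31 genes averaged 0.12, 0.42 and 0.82 on wild-type sections and -0.26, -0.23 and -0.07 on APdE9 sections. With the replicate block 24 of the 31 were called, and with the 6 neonatal arrays alone 3. Leaving out 1 array gave 1 to 16 called members, 16 without wild-type replicate 1 and 1 without wild-type replicate 2 or without APdE9 replicate 1, 2 without wild-type replicate 3 or APdE9 replicate 2, and 3 without APdE9 replicate 3. The call was lost for Cdc20 in 3 fits (adjusted p up to 0.0652 without APdE9 replicate 2), Kif20a in 5 fits (adjusted p up to 0.103 without APdE9 replicate 2, 0.0695 with the neonatal arrays alone), Ube2c in 9 fits (adjusted p up to 0.131 without APdE9 replicate 1, 0.0884 with the neonatal arrays alone), Nek2 in 3 fits (adjusted p up to 0.0757 without wild-type replicate 2, 0.064 with the neonatal arrays alone), Aurka in 9 fits (adjusted p up to 0.164 without wild-type replicate 2, 0.117 with the neonatal arrays alone) and Cenpf in 9 fits (adjusted p up to 0.152 without wild-type replicate 2, 0.064 with the neonatal arrays alone).

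The promoter of Cdc20 is shown for the motifs that mitotic genes share, the cell cycle homology region TTTGAA and CCAAT, both in capitals (RefSeq, GRCm38.p6, 5′ to 3′ on the gene's strand).
Cdc20, chr4:118437347-118437466, minus strand: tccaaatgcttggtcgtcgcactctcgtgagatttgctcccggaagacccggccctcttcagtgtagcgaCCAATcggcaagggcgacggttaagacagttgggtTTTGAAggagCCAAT
TTTGAA was present in 20 of the 26 mitotic genes with a promoter in the table (76.9%) against 15.7% of measured genes, and CCAAT in 22 (84.6%) against 42%. Of the 6 called members with a promoter, 5 held TTTGAA and 6 held CCAAT. Of 27 genes of DNA replication, none was called by limma, 4 had an unadjusted p below 0.05 (14.8% of all genes did), and the median was 0.03. Mcm2, a subunit of the replicative helicase, read -0.52, -0.24 and -0.08 on wild-type sections and 0.22, -0.03 and -0.03 on APdE9 sections (0.33, SE 0.15, adjusted p = 0.325). Pcna, the sliding clamp, differed by 0.16 (SE 0.09, adjusted p = 0.479) and Rrm2, the inducible subunit of ribonucleotide reductase, by 0.03 (SE 0.17, adjusted p = 0.981). The groups overlapped for Rrm2, and for Mcm2 the lowest APdE9 value lay just above the highest wild-type value. Replication genes averaged -0.18, -0.01 and 0.13 on wild-type sections and 0.15, -0.03 and -0.02 on APdE9 sections.

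Markers of microglia and macrophages were higher on APdE9 sections in part: 5 of 26 were called higher and 0 lower, 25 differences were above 0, and the median was 0.38. The cultures had been shaken to remove microglia, and the submitters' protocol reports few cells stained for Iba or CD11b. Averages of the 26 markers were 1.79, 1.25 and 1.26 on wild-type sections and 1.95, 1.78 and 1.88 on APdE9 sections. Wild-type replicate 1 thus lay just above APdE9 replicate 2, and the groups overlapped. Ly86, the MD-1 partner of a toll-like receptor homologue, read 2.07, 1.38 and 1.52 on wild-type sections and 2.68, 2.78 and 2.83 on APdE9 sections. Ly86 rose by 1.11 (SE 0.20, adjusted p = 0.00961). Aif1, which encodes the microglial marker Iba1, read 2.61, 1.91 and 2.11 on wild-type sections and 3.33, 2.95 and 2.96 on APdE9 sections, a rise of 0.87 (SE 0.20, adjusted p = 0.0334). Cd68, a lysosomal glycoprotein of phagocytes, read 1.88, 1.39 and 1.19 on wild-type sections and 2.30, 2.33 and 2.31 on APdE9 sections. Cd68 rose by 0.83 (SE 0.18, adjusted p = 0.0246). In each of these genes wild-type replicate 1 was the highest of its group and still below every APdE9 array. The purinergic receptor P2ry13 (0.95, SE 0.20, adjusted p = 0.0228) and the selectin ligand Selplg (0.90, SE 0.22, adjusted p = 0.0389) were the other two called. The fractalkine receptor Cx3cr1 read 0.76, 0.32 and 0.40 on wild-type sections and 0.34, 0.56 and 0.59 on APdE9 sections (0.01, SE 0.13, adjusted p = 0.994) and the growth factor receptor Csf1r read 2.63, 1.57 and 1.51 on wild-type sections and 1.86, 1.90 and 1.83 on APdE9 sections (-0.04, SE 0.24, adjusted p = 0.982), both with overlapping groups. With the replicate block 9 members were called, and with the 6 neonatal arrays alone 2. Leaving out 1 array gave 0 to 9, 9 without wild-type replicate 1, 0 without wild-type replicate 2, 1 without wild-type replicate 3 or APdE9 replicate 1 or 3, 2 without APdE9 replicate 2 and 3 without adult APdE9 replicate 2, and the call was lost for Ly86 in 1 fit (adjusted p = 0.057 without wild-type replicate 2), Aif1 in 6 fits (adjusted p up to 0.163 without wild-type replicate 2, 0.0695 with the neonatal arrays alone), Cd68 in 5 fits (adjusted p up to 0.115 without wild-type replicate 2, 0.056 with the neonatal arrays alone), P2ry13 in 4 fits (adjusted p up to 0.114 without wild-type replicate 2, 0.11 with the neonatal arrays alone) and Selplg in 7 fits (adjusted p up to 0.15 without wild-type replicate 2).

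Of 17 genes that microglia raise near plaques, 3 were called higher and 0 lower: Cst7, given above, the glycoprotein Gpnmb and the chemokine Ccl6. Gpnmb read 1.75, 1.20 and 0.96 on wild-type sections and 2.49, 2.23 and 2.27 on APdE9 sections. Gpnmb rose by 1.03 (SE 0.16, adjusted p = 0.00416). Ccl6 read 2.31, 2.24 and 2.22 on wild-type sections and 3.40, 3.45 and 3.22 on APdE9 sections. Ccl6 rose by 1.10 (SE 0.10, adjusted p = 0.000212), with both groups in narrow bands. The receptors Trem2 (0.11, SE 0.10, adjusted p = 0.718) and Clec7a (0.45, SE 0.19, adjusted p = 0.298), which define the same microglial state, were not called. Among 24 genes of phagocytosis and lysosomes 4 were called higher and 1 lower, with a median of -0.01. Atp6v0d2, a subunit of the proton pump of macrophages and osteoclasts, read -0.59, -0.68 and -0.68 on wild-type sections and 0.39, 0.27 and 0.10 on APdE9 sections, a rise of 0.90 (SE 0.14, adjusted p = 0.00411). Msr1, a scavenger receptor that binds amyloid beta, rose by 0.82 (SE 0.13, adjusted p = 0.0055, 0.0504 with the neonatal arrays alone), and Megf10, by which astrocytes engulf synapses, read 0.07, 0.19 and 0.20 on wild-type sections and 0.91, 0.82 and 0.71 on APdE9 sections. Megf10 rose by 0.66 (SE 0.12, adjusted p = 0.0122). Each of these had no overlap between groups. The protease Ctsz rose by 0.48 (SE 0.12, adjusted p = 0.0425) and the receptor kinase Tyro3 fell by 0.49 (SE 0.12, adjusted p = 0.0425). Mertk, a related engulfment receptor, differed by 0.54 (SE 0.18, adjusted p = 0.142, 0.0303 with the replicate block) and the lysosomal membrane protein Lamp1 by -0.01 (SE 0.07, adjusted p = 0.985). In fits without 1 array the call was lost for Megf10 in 2 fits (adjusted p up to 0.0539 without APdE9 replicate 1), Ctsz in 10 fits (adjusted p up to 0.189 without wild-type replicate 2, 0.167 with the neonatal arrays alone) and Tyro3 in 10 fits (adjusted p up to 0.153 without APdE9 replicate 1, 0.132 with the neonatal arrays alone). Of the 17 plaque genes 8 had differences below 0, as had 13 of the 24 phagocytosis genes, against 1 of the 26 microglial markers. The part of microglia in the rises of this paragraph was not tested.

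Chemokines had the largest share of members called higher among the 32 groups, 7 of 26 with 1 lower and a median of 0.34. Besides Ccl12 and Ccl6, Cxcl11, a ligand of the T cell receptor CXCR3, read 0.39, 0.22 and 0.17 on wild-type sections and 1.21, 0.95 and 1.38 on APdE9 sections. Cxcl11 rose by 0.92 (SE 0.15, adjusted p = 0.00511), and its 2 probe sets differed by 0.24 and 1.59, with 1 called. Ccl8, a monocyte chemokine, read -0.37, -0.06 and -0.03 on wild-type sections and 0.42, 0.56 and 0.67 on APdE9 sections. Ccl8 rose by 0.71 (SE 0.13, adjusted p = 0.0104). Ccl5, RANTES, read 0.54, 0.54 and 0.48 on wild-type sections and 0.87, 0.83 and 0.93 on APdE9 sections, a rise of 0.36 (SE 0.08, adjusted p = 0.026), the smallest of the 7 and with little spread in either group. Ccl11, eotaxin, rose by 0.86 (SE 0.21, adjusted p = 0.0472) and Cxcl16, a transmembrane chemokine, by 0.57 (SE 0.14, adjusted p = 0.0411). Cxcl12, which holds progenitors and lymphocytes through CXCR4, was the 1 called lower (-0.54, SE 0.09, adjusted p = 0.00565, 0.0575 with the neonatal arrays alone). The acute chemokines varied between arrays of a group: Ccl2 read 1.13, 0.79 and 0.26 on wild-type sections and 1.14, 1.47 and 1.67 on APdE9 sections (0.70, SE 0.49, adjusted p = 0.617) and Cxcl10 read 2.17, 1.34 and 0.07 on wild-type sections and 2.27, 1.42 and 1.26 on APdE9 sections (0.46, SE 0.73, adjusted p = 0.898). Cxcl1 was not called either (-0.53, SE 0.56, adjusted p = 0.808). With the 6 neonatal arrays alone 4 members were called. Without 1 array 4 to 6 were called, 4 without wild-type replicate 2, APdE9 replicate 1 or APdE9 replicate 3, and the call was lost for Ccl11 in 10 fits (adjusted p up to 0.152 without APdE9 replicate 3, 0.163 with the neonatal arrays alone), Cxcl16 in 9 fits (adjusted p up to 0.189 without wild-type replicate 2, 0.118 with the neonatal arrays alone) and Ccl5 in 5 fits (adjusted p up to 0.0943 without wild-type replicate 2, 0.0807 with the neonatal arrays alone).

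Of 27 cytokines and receptors, 3 were called higher (Il33, Il7r and Il13ra1) and 1 lower (Il6st), and the median was -0.02. Il13ra1, a receptor chain for interleukins 4 and 13, read -0.45, -0.35 and -0.14 on wild-type sections and 0.06, 0.16 and 0.07 on APdE9 sections. Il13ra1 rose by 0.41 (SE 0.09, adjusted p = 0.0298). Il6st encodes gp130, the shared receptor of the interleukin-6 family, and read 0.05, 0.15 and 0.32 on wild-type sections and -0.45, -0.18 and -0.27 on APdE9 sections. Il6st fell by 0.47 (SE 0.10, adjusted p = 0.0185). The classical inflammatory cytokines spread over more than 1 log2 unit within a group: Il1b read 3.36, 2.78 and 1.29 on wild-type sections and 3.01, 2.63 and 1.01 on APdE9 sections, Tnf read 2.52, 2.18 and 0.56 on wild-type sections and 2.17, 3.01 and 0.56 on APdE9 sections and Il6 read 2.42, 0.73 and -0.44 on wild-type sections and 1.26, -0.28 and -0.47 on APdE9 sections. Replicate 3 was the lowest array of each group for these genes, and none was called, with adjusted p of 0.927 for Il1b, 0.961 for Tnf and 0.704 for Il6. In fits without 1 array the call was lost for Il13ra1 in 5 fits (adjusted p up to 0.131 without wild-type replicate 2, 0.112 with the neonatal arrays alone) and Il6st in 3 fits (adjusted p up to 0.0747 without APdE9 replicate 1, 0.0872 with the neonatal arrays alone).

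Interferon-stimulated genes were higher in part: 5 of 32 were called higher and 0 lower, 28 differences were above 0, 16 genes had all APdE9 arrays above all wild-type arrays, and the median was 0.32. After Slfn4, the antiviral GTPase Mx1 read 0.62, 0.52 and 0.70 on wild-type sections and 2.07, 1.24 and 2.20 on APdE9 sections. Mx1 rose by 1.22 (SE 0.26, adjusted p = 0.0215), with APdE9 replicate 2 the lowest of its group. Ifit2, which blocks the translation of foreign RNA, read 0.52, 0.54 and 0.55 on wild-type sections and 1.28, 1.28 and 1.32 on APdE9 sections, a rise of 0.76 (SE 0.12, adjusted p = 0.00512). Slfn1, another schlafen gene, rose by 0.71 (SE 0.10, adjusted p = 0.00249), and its 2 probe sets differed by -0.01 and 1.43. Gbp2 was the fifth. Irf7, the factor that amplifies the interferon response, read 0.31, 0.32 and 0.27 on wild-type sections and 0.15, 0.17 and 0.31 on APdE9 sections and its groups overlapped (-0.09, SE 0.17, adjusted p = 0.921). Ifit1, a relative of Ifit2, differed by 0.36 (SE 0.28, adjusted p = 0.674). The mean over the 32 genes was 0.20, 0.13 and 0.27 on wild-type sections and 0.61, 0.53 and 0.68 on APdE9 sections. The interferon-stimulated response element GAAANNGAA was present in 15 of 24 promoters of the group (62.5%) against 8.70% of measured genes, and in 1 of its 4 called members with a promoter, Gbp2. With the replicate block 8 members were called. Without 1 array 3 to 7 were called, 3 without wild-type replicate 2, and the call was lost for Mx1 in 4 fits (adjusted p up to 0.0966 without wild-type replicate 2) and Gbp2 in 1 fit (adjusted p = 0.0506 without wild-type replicate 2).

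In antigen presentation 2 of 18 genes were called higher, both subunits of the immunoproteasome: Psmb8 and Psmb10. Psmb10 read -0.13, 0.09 and 0.18 on wild-type sections and 0.74, 0.51 and 0.83 on APdE9 sections. Psmb10 rose by 0.65 (SE 0.13, adjusted p = 0.0172). The class I genes H2-K1 (-0.04, SE 0.08, adjusted p = 0.909) and B2m (0.07, SE 0.07, adjusted p = 0.765) and the class II chain Cd74 (0.05, SE 0.09, adjusted p = 0.919) were not called, and the median of the group was 0.06. Without 1 array the call was lost for Psmb10 in 4 fits (adjusted p up to 0.0677 without APdE9 replicate 1). The mean over the microglial markers, given above, was higher on each APdE9 array than on wild-type replicates 2 and 3. Wild-type replicate 1 (1.79) lay just above APdE9 replicate 2 (1.78), so the groups overlapped. The part of microglia in the rises of chemokine, cytokine, interferon and antigen presentation genes was not tested.

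Markers of other cell types that a brain section holds were called for 1 member each of the neuron, endothelial and blood cell lists and for more of the myelin list. Of all genes 3.76% were called. Among 13 oligodendrocyte and myelin genes, 2 were called higher and 1 lower, with a median of -0.04. Mbp, myelin basic protein, read -0.98, -0.51 and -0.58 on wild-type sections and 1.55, 1.03 and 0.75 on APdE9 sections, a 3.48-fold rise (1.80, SE 0.20, adjusted p = 0.00053), and its 8 probe sets differed by -0.06 to 3.75, with 5 called higher. Mobp, another myelin protein, read -0.26, -0.30 and -0.38 on wild-type sections and 0.46, 0.27 and 0.17 on APdE9 sections. Mobp rose by 0.62 (SE 0.11, adjusted p = 0.00833), and 1 of its 5 probe sets, which ranged from -0.04 to 2.91, was called. With the median of the probe sets in place of the mean, Mobp was not called (adjusted p = 0.64). Cnp, an enzyme of the myelin sheath, read 0.87, 0.86 and 0.91 on wild-type sections and 0.22, 0.23 and 0.42 on APdE9 sections. Cnp fell by 0.59 (SE 0.08, adjusted p = 0.00191). The myelin surface protein Mog read -0.04, -0.04 and 0.02 on wild-type sections and -0.17, -0.04 and -0.17 on APdE9 sections (-0.10, SE 0.09, adjusted p = 0.746). The mean over the 13 genes was -0.01, 0.07 and -0.03 on wild-type sections and 0.12, 0.10 and 0.12 on APdE9 sections. Of 17 neuron markers 1 was called, lower: Thy1, a surface protein of neurons and other cells (-0.76, SE 0.15, adjusted p = 0.0146). The synaptic genes Snap25 (0.09, adjusted p = 0.698) and Syt1 (0.02, adjusted p = 0.962) and the nuclear marker Rbfox3 (0.03, adjusted p = 0.964) were not called, and the mean over the list was 0.02, 0.03 and 0.01 on wild-type sections and -0.06, -0.02 and -0.05 on APdE9 sections. Of 13 endothelial markers 1 was called, lower: Emcn, endomucin, read 1.69, 2.36 and 2.65 on wild-type sections and 0.86, 1.17 and 1.37 on APdE9 sections, and fell by 1.10 (SE 0.22, adjusted p = 0.0172). The junction genes Pecam1 (0.06, adjusted p = 0.902), Cldn5 (0.03, adjusted p = 0.963) and Cdh5 (0.27, adjusted p = 0.294) were not called. Among 13 blood cell markers the antimicrobial peptide Camp was called higher (0.84, SE 0.18, adjusted p = 0.024), while the T cell gene Cd3e (-0.10, adjusted p = 0.866), haemoglobin Hba-a1 (0.03, adjusted p = 0.968) and the neutrophil gene S100a8 (0.46, adjusted p = 0.37) were not. Without 1 array the call was lost for Thy1 in 4 fits (adjusted p up to 0.0777 without wild-type replicate 2, 0.0584 with the neonatal arrays alone), Emcn in 4 fits (adjusted p up to 0.0908 without wild-type replicate 2, 0.0695 with the neonatal arrays alone) and Camp in 4 fits (adjusted p up to 0.0994 without APdE9 replicate 1, 0.113 with the neonatal arrays alone).

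Mural cell and smooth muscle markers went both ways, with 2 of 14 called higher and 2 lower. Myl9, the regulatory light chain of contractile myosin, read 0.43, 0.82 and 0.86 on wild-type sections and -0.58, -0.50 and -0.57 on APdE9 sections, a 2.39-fold fall (-1.25, SE 0.15, adjusted p = 0.000861). Mcam, an adhesion protein of vessel walls, fell by 0.79 (SE 0.10, adjusted p = 0.00132). Rgs5, a G protein regulator of pericytes, read -0.55, -0.56 and -0.42 on wild-type sections and 0.17, 0.20 and 0.09 on APdE9 sections. Rgs5 rose by 0.66 (SE 0.08, adjusted p = 0.00106), and its 4 probe sets differed by 0.07 to 1.54, with 2 called. Anpep, aminopeptidase N, rose by 0.84 (SE 0.15, adjusted p = 0.0105). The groups did not overlap in any of these 4 genes. Pdgfrb, the pericyte receptor (-0.24, adjusted p = 0.477), and Acta2, smooth muscle actin (-0.14, adjusted p = 0.759), were not called. Of 14 fibroblast and meningeal markers 2 were called higher, the small proteoglycans Lum and Dcn, and 1 lower, the collagen chain Col1a1. Lum read -1.60, -1.01 and -0.76 on wild-type sections and -0.18, -0.27 and -0.07 on APdE9 sections. Lum rose by 0.94 (SE 0.17, adjusted p = 0.00939, 0.0621 with the neonatal arrays alone). Dcn rose by 0.43 (SE 0.10, adjusted p = 0.0374). Without 1 array the call was lost for Dcn in 8 fits (adjusted p up to 0.124 without APdE9 replicate 3, 0.156 with the neonatal arrays alone) and Col1a1 in 2 fits (adjusted p up to 0.0703 without APdE9 replicate 1, 0.0841 with the neonatal arrays alone).

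Matrix genes were called lower more often than higher, as were all genes, with 2.55% called lower and 1.21% higher. Of 25 collagen genes 6 were called lower and 1 higher, with a median of -0.18. Col1a1, the main chain of fibrous collagen, read -1.60, -1.28 and -0.84 on wild-type sections and -2.25, -2.03 and -1.89 on APdE9 sections. Col1a1 fell by 0.82 (SE 0.16, adjusted p = 0.0162). Col23a1, a transmembrane collagen, was the 1 called higher and read 0.08, 0.12 and 0.28 on wild-type sections and 0.75, 0.58 and 0.69 on APdE9 sections (0.51, SE 0.08, adjusted p = 0.00329). The other called chains were Col9a1 (-0.61, adjusted p = 0.0246), Col8a1 (-0.59, adjusted p = 0.0218), Col11a1 (-0.57, adjusted p = 0.0172) and the basement membrane chains Col4a1 (-0.37, adjusted p = 0.0435) and Col4a5 (-0.34, adjusted p = 0.0172). Col3a1 was not called (-0.18, adjusted p = 0.559). Without 1 array the call was lost for Col1a1 in 2 fits (adjusted p up to 0.0703 without APdE9 replicate 1, 0.0841 with the neonatal arrays alone), Col9a1 in 4 fits (adjusted p up to 0.112 without wild-type replicate 2, 0.0693 with the neonatal arrays alone), Col8a1 in 4 fits (adjusted p up to 0.0896 without APdE9 replicate 1, 0.108 with the neonatal arrays alone), Col11a1 in 3 fits (adjusted p up to 0.0718 without APdE9 replicate 1, 0.0885 with the neonatal arrays alone), Col4a1 in 12 fits (adjusted p up to 0.146 without APdE9 replicate 1, 0.177 with the neonatal arrays alone) and Col4a5 in 4 fits (adjusted p up to 0.0826 without wild-type replicate 2, 0.108 with the neonatal arrays alone). Col4a1 thus kept its call in none of the 12 fits.

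Of 31 matrix glycoproteins and proteoglycans 5 were called lower and 0 higher, with a median of -0.17. Lamb2, a laminin chain of the vessel wall and endfoot basement membrane, read 0.35, 0.26 and 0.50 on wild-type sections and -0.60, -0.77 and -0.57 on APdE9 sections, a 2.02-fold fall (-1.02, SE 0.13, adjusted p = 0.00132). Lama2, another laminin chain, fell by 0.72 (SE 0.14, adjusted p = 0.0143). Bcan, brevican, read 1.89, 1.62 and 1.74 on wild-type sections and 1.18, 1.21 and 1.01 on APdE9 sections, and fell by 0.62 (SE 0.10, adjusted p = 0.00506), and Ncan, neurocan, read 1.98, 1.85 and 1.71 on wild-type sections and 1.34, 1.32 and 1.19 on APdE9 sections. Ncan fell by 0.56 (SE 0.08, adjusted p = 0.00328). These proteoglycans form the nets around neurons, and their groups were well apart. Spon1, F-spondin, fell by 0.52 (SE 0.09, adjusted p = 0.0065, 0.0506 with the neonatal arrays alone). Fibronectin Fn1 (-0.61, adjusted p = 0.633), tenascin Tnc (0.05, adjusted p = 0.987) and the hevin gene Sparcl1 (-0.20, adjusted p = 0.264) were not called. Enzymes that cut the matrix went the other way in part, with 4 of 18 proteases and inhibitors called higher and 2 lower. Mmp3, stromelysin 1, read -0.46, -0.39 and -0.33 on wild-type sections and 0.47, 0.34 and 0.33 on APdE9 sections. Mmp3 rose by 0.78 (SE 0.08, adjusted p = 0.000412). Mmp12, macrophage elastase, rose by 0.80 (SE 0.13, adjusted p = 0.0059), and Adamts4, an aggrecanase, by 0.83 (SE 0.14, adjusted p = 0.0065). Timp1, given above, was the fourth. The related proteases Adamts5 (-0.70, SE 0.11, adjusted p = 0.00517) and Adamts1 (-0.52, SE 0.13, adjusted p = 0.0479) fell, while Mmp2 (0.12, adjusted p = 0.689) and Mmp9 (0.48, adjusted p = 0.0581, 0.0086 with the replicate block) were not called. Without 1 array the call was lost for Lama2 in 4 fits (adjusted p up to 0.0669 without wild-type replicate 2, 0.0706 with the neonatal arrays alone), Adamts1 in 10 fits (adjusted p up to 0.191 without wild-type replicate 2, 0.149 with the neonatal arrays alone) and Timp1 in 5 fits (adjusted p up to 0.106 without wild-type replicate 2, 0.0901 with the neonatal arrays alone).

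Genes of secreted signals between cells were called for some members of each pathway, beside 1.21% of all genes called higher and 2.55% called lower. In the Wnt pathway 5 of 42 genes were called lower and 1 higher. Wif1, a secreted inhibitor that binds Wnt proteins, read -1.21, -0.79 and -0.45 on wild-type sections and -2.26, -2.40 and -1.90 on APdE9 sections, a 2.58-fold fall (-1.37, SE 0.17, adjusted p = 0.00129). Wnt5b, a ligand of the non-canonical branch, read 1.54, 1.82 and 1.71 on wild-type sections and 0.22, 0.27 and 0.48 on APdE9 sections. Wnt5b fell by 1.36 (SE 0.10, adjusted p = 3.06e-05), with both groups in narrow bands. The ligand Wnt4 fell by 0.68 (SE 0.14, adjusted p = 0.017), the formin Daam2 fell by 0.60 (SE 0.12, adjusted p = 0.0191) and the Dickkopf relative Dkk3 fell by 0.56 (SE 0.09, adjusted p = 0.0037). Dkk2, a blocker of Wnt co-receptors, was the 1 called higher (0.41, SE 0.10, adjusted p = 0.0423). The ligand Wnt5a (0.08, adjusted p = 0.811), the effector Ctnnb1, beta-catenin (-0.27, adjusted p = 0.0943), and the pathway's usual target Axin2 (0.18, adjusted p = 0.842) were not called.

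Among 25 BMP and TGF-beta genes the ligand Tgfb2 was called higher and the ligand Gdf10 lower, beside 1.21% and 2.55% of all genes. Gdf10 read -0.47, -0.15 and -0.08 on wild-type sections and -1.60, -1.25 and -1.45 on APdE9 sections, a 2.3-fold fall (-1.20, SE 0.12, adjusted p = 0.000252), and Tgfb2 read -0.27, -0.29 and -0.16 on wild-type sections and 0.18, 0.36 and 0.20 on APdE9 sections, a rise of 0.49 (SE 0.09, adjusted p = 0.0105). Neither gene's groups overlapped. Tgfb1 differed by 0.31 (adjusted p = 0.277), Bmp4 by -0.36 (adjusted p = 0.862) and the feedback inhibitor Smad7 by -0.05 (adjusted p = 0.992). In the hedgehog pathway 1 of 7 genes was called, lower: Hhip, a decoy receptor that is itself a target, read 0.91, 1.47 and 1.63 on wild-type sections and 0.28, 0.30 and 0.30 on APdE9 sections. Hhip fell by 1.04 (SE 0.15, adjusted p = 0.00314). The APdE9 arrays of Hhip were nearly equal. Gli1, the usual readout of the pathway (-0.54, adjusted p = 0.165, 0.0309 with the replicate block), the receptor Ptch1 (-0.08, adjusted p = 0.901) and the transducer Smo (0.00, adjusted p = 0.997) were not called. In amino acid and creatine metabolism 2 of 26 genes were called higher (Gatm and Arg1) and 2 lower. Gpt2, an alanine aminotransferase of mitochondria, read 0.31, 0.31 and 0.41 on wild-type sections and -0.34, -0.26 and -0.35 on APdE9 sections. Gpt2 fell by 0.66 (SE 0.08, adjusted p = 0.000802). Gamt, which completes the synthesis of creatine begun by Gatm, fell by 0.61 (SE 0.14, adjusted p = 0.0357), so the 2 enzymes of creatine synthesis differed in opposite directions. In fits without 1 array the call was lost for Tgfb2 in 1 fit (adjusted p = 0.0627 without wild-type replicate 2) and Gamt in 6 fits (adjusted p up to 0.137 without wild-type replicate 2, 0.121 with the neonatal arrays alone), and in the Wnt pathway for Wnt4 in 3 fits (adjusted p up to 0.0833 without wild-type replicate 2, 0.0889 with the neonatal arrays alone), Daam2 in 3 fits (adjusted p up to 0.0966 without wild-type replicate 2, 0.0588 with the neonatal arrays alone) and Dkk2 in 9 fits (adjusted p up to 0.173 without wild-type replicate 2, 0.121 with the neonatal arrays alone).

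Genes that make or break down amyloid beta gave no call. Of 22, none was called by limma, 4 had an unadjusted p below 0.05 (14.8% of all genes did), and the median was -0.02. App, the precursor, read 0.01, 0.09 and 0.02 on wild-type sections and -0.14, 0.07 and -0.06 on APdE9 sections, with overlapping groups (-0.08, SE 0.08, adjusted p = 0.786). Bace1, the beta-secretase, read -0.53, -0.51 and -0.40 on wild-type sections and -0.25, -0.13 and -0.32 on APdE9 sections (0.25, SE 0.08, adjusted p = 0.104), each APdE9 array above the wild-type arrays. Prnp, whose promoter drives the section's transgenes, read 0.42, 0.38 and 0.23 on wild-type sections and -0.03, 0.18 and -0.13 on APdE9 sections (-0.34, SE 0.09, adjusted p = 0.0726), each APdE9 array below the wild-type arrays. The arrays carry mouse probes, so transcripts of the chimeric transgene were not measured apart from mouse App.

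More genes were called in adult cells on the same kinds of section, 1503 (8.26%) higher and 1710 (9.40%) lower, than in neonatal cells. Of the 220 genes that rose in neonatal cells, 83 were called higher in adult cells, 25 lower and 112 not at all, and of the 464 that fell, 162 were called lower, 60 higher and 242 not at all. The difference of the section effects, tested as an interaction in the same fit, was called for 1831 of all genes (10.1%) and for 100 of the 220 and 235 of the 464. The neonatal effect by which the 220 and 464 were chosen is part of that difference, so their shares cannot be set against the 10.1%. Without neonatal wild-type replicate 2 the difference was called for 1208 genes and without adult wild-type replicate 2 for 1218. Cholesterol biosynthesis genes were called lower at both ages, with 16 of 17 genes called lower in adult cells and the difference called for 1 gene. In Idi1 the section effect was -1.55 (adjusted p = 0.00109) in adult cells, and the neonatal minus adult difference was 0.16 (adjusted p = 0.853). Mitotic genes were called lower in adult cells in 30 of 31 cases, and the difference was called for 6 of them, with the larger fall in adult cells each time. Apoe was called higher in adult cells (1.92, adjusted p = 1.05e-07), and the neonatal minus adult difference was -2.18 (adjusted p = 2.62e-06).

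Astrocyte markers and cilia genes showed another pattern. In adult cells 7 of 25 astrocyte markers were called higher and 7 lower, and the difference of the section effects was called for 11, in each case with the neonatal effect below the adult one. Aqp4 rose in adult cells by 0.58 (adjusted p = 0.000298) where it fell in neonatal cells, a difference of -1.32 (adjusted p = 2.66e-05), and Aldoc rose by 0.34 (adjusted p = 0.00975), a difference of -1.39 (adjusted p = 1.65e-05). Of the 30 cilia genes 1 was called higher and 0 lower by limma in adult cells, where the median was 0.07, and the difference was called for 8. Tppp3 rose there by 0.54 (adjusted p = 0.00171), a difference of -1.33 (adjusted p = 8.14e-05). Immune genes differed by member: Slfn4 was 0.23 (adjusted p = 0.566) and Ccl12 0.19 (adjusted p = 0.692) in adult cells, with differences of 2.02 (adjusted p = 0.00284) and 1.93 (adjusted p = 0.00937), while the interferon group as a whole had 24 of 32 called higher in adult cells, and the difference was called for 14 of the 32, 12 with the neonatal effect below the adult one. Irf7 rose there by 3.06 (adjusted p = 2.22e-07) and Ccl5 by 4.97 (adjusted p = 3.09e-12), with differences of -3.14 (adjusted p = 1.04e-05) and -4.61 (adjusted p = 4.67e-10). Lcn2 rose there by 2.83 (adjusted p = 1.05e-07), a difference of -2.91 (adjusted p = 4.74e-06), and Gdf10 rose by 1.18 (adjusted p = 2.35e-05) where it fell in neonatal cells, a difference of -2.38 (adjusted p = 5.83e-06). Mbp rose at both ages, by 1.78 (adjusted p = 5.56e-05) in adult cells, and the difference of 0.02 (adjusted p = 0.978) was not called.

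**Figure D5:**
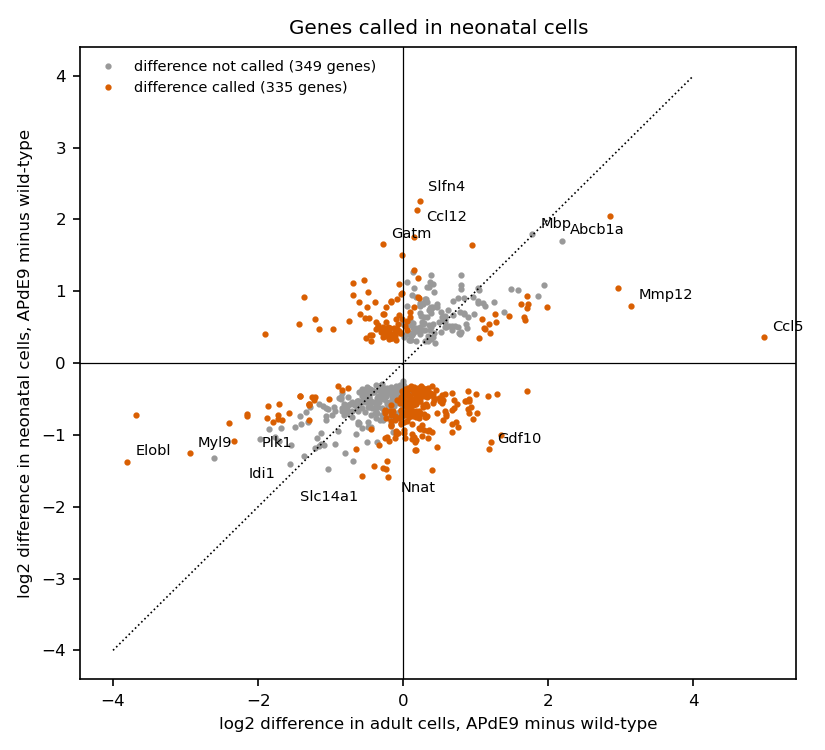
Each point is a gene called in neonatal cells, placed by its log2 difference between APdE9 and wild-type sections in adult cells (horizontal) and in neonatal cells (vertical); the dotted line marks equal differences and orange marks the 335 genes whose difference between the ages was called. Slfn4, Ccl12 and Gatm lie near 0 on the adult axis, Mbp and Abcb1a near the dotted line, and Elobl, Myl9 and Ccl5 far out on the adult axis.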

How the data were processed

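Total RNA of picked astrocytes was hybridised to Affymetrix whole-genome mouse arrays. RMA is named in the submitters' processing notes, and the values the authors deposited were taken as log2, although the base is not given in the sources used here. In the deposited table every complete probe set had median 0 over the 12 arrays (tolerance 1e-06), so levels had been removed. In 4 columns, handled as a deposited score, 6 values above 100 were set to missing, 1 of them of C1qb. Of 45037 probe sets tested, 34945 had 1 gene in the platform annotation, 34741 of these matched RefSeq, 932 had several genes and 9160 none. Probe sets of a gene were averaged, giving 18193 genes.

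Group means of all 12 arrays were fitted with limma 3.58.1 (R 4.3.3) with Benjamini-Hochberg adjustment over all genes, tested beforehand on simulated data. The sections compared within an age and the interaction of section and age were contrasts of that fit. The array number limits precision: 3 per group. Deviations of neonatal arrays with the same number correlated at 0.239, 0.183 and 0.477, and those with unlike numbers at -0.385 to 0.146. In adult arrays the same numbers gave 0.287, -0.106 and 0.447, and unlike numbers up to 0.225. The numbers were taken to pair the samples in the fits with a replicate block alone, and the main fit had no block. Members and gene lists were chosen with earlier results of these data known. Named were the 20 largest called rises and falls without overlap (RIKEN, Gm and LOC names left out), up to 8 called genes of each list by size, the first 3 genes of each list, App and Prnp. The groups described, the windows printed, the X-box search and the fit of 6 arrays with replicate numbers were added after the values were seen.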

Additional observations from a re-analysis of the deposited data

Results flagged for a closer look

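The section effect in neonatal cells was set against that in adult cells for each called gene described in the report, as neonatal minus adult log2 difference (limma interaction, adjusted over all 18193 genes), and 70 of these genes were called. The genes were chosen by the neonatal effect, which is part of this difference, so their number cannot be set against all genes. The test shows that the effects differ and not which condition of the cultures they differ with, since age, medium and isolation go together. Values are given in brackets, and none was weighed further. Among genes that rose in neonatal cells and were not called in adult cells were Slfn4 (2.02), Ccl12 (1.93), Cst7 (1.61), Gatm (1.94), Cd300lf (1.52), Il7r (1.16), Ms4a4c (0.97), Ccl6 (1.16) and Plin2 (0.52). To these were added Cxcl11 (0.72), Slfn1 (0.62), Rgs5 (0.72) and Col23a1 (0.49). Among genes that rose in neonatal cells and fell in adult cells were Cd244a (1.70), Cbr2 (1.81), Lum (1.64) and Dkk2 (2.32). Among genes that rose at both ages by different amounts were AA467197 (-0.81), Il33 (0.69), Cxcl16 (-0.71), Ccl5 (-4.61), Cd68 (-0.89), Megf10 (-0.80), Mmp12 (-2.33), Mmp3 (-1.21) and Tgfb2 (-0.63). Genes that fell in neonatal cells and were not called in adult cells included Nnat (-1.38), Cdsn (-1.88), Psd2 (-1.24), Rsph4a (-1.18), Wnt5b (-1.14), Serpina3n (-1.40), Qprt (-1.37), Srebf1 (-0.89) and Elovl5 (-0.67). They further included Bdh1 (-0.48), Gfap (-0.79), Hepacam (-0.94), Aldh1l1 (-0.60), Ccdc40 (-0.98), Dnali1 (-0.70), Zmynd10 (-0.94), Lamb2 (-1.28) and Spon1 (-0.64). They further included Hhip (-0.78) and Gpt2 (-0.62). Genes that fell in neonatal cells and rose in adult cells included Gdf10 (-2.38), Slc25a18 (-1.63), Lcat (-1.24), Aldoc (-1.39), Aqp4 (-1.32), Mlc1 (-1.30), Tppp3 (-1.33), Cnp (-0.85) and Bcan (-1.32). They further included Ncan (-1.30). Genes that fell at both ages by different amounts included Slc14a1 (-1.01), Itih3 (-1.03), Elobl (2.43), Myl9 (1.69), A2m (-0.55), Ptx3 (0.94), Il6st (0.78), Thy1 (1.11) and Mcam (0.50). They further included Col1a1 (0.97), Col8a1 (0.70), Col11a1 (1.14), Adamts5 (0.88) and Dkk3 (0.74).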

How the results depend on the processing

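None of the 207 named genes reversed direction in an alternative fit when it was called there or in the main fit. Changes of direction in genes called in neither were not counted. Of 4545 recomputed values 4115 stayed on their side of the threshold, 392 lost a call and 38 gained one. Of the 143 called, 78 kept the call without any 1 of the 12 arrays, 91 with only the 6 neonatal arrays and 143 with the replicate block. The block also called 6 named genes that were not called without it, given with the results, ended the call of 3 of the 684 genes, and gave 15 cholesterol, 11 sterol and 11 astrocyte genes. With the replicate number as a block 1013 genes and 1344 probe sets were called against 684 and 901 without it. With only the 6 neonatal arrays 272 genes (86 higher, 186 lower) and 294 probe sets were called, with 4 sterol and fatty acid, 6 cilia, 3 mitosis, 4 chemokine and 2 microglia genes. With limma's array weights 2160 genes (832 higher, 1328 lower) and 2105 probe sets were called, 3427 genes differed between ages, and 16 astrocyte, 22 mitosis, 12 interferon and 14 microglia genes were called. Quantile normalization gave 12 mitosis and 8 interferon genes. The replicate block gave 24 mitosis, 8 interferon and 9 microglia genes, and with only the 6 arrays and the replicate block 763 genes, 997 probe sets, 21 mitosis, 11 interferon and 8 microglia genes were called. Leaving out 1 array gave 263 to 761 genes (76 to 252 higher, 187 to 509 lower), 289 to 889 probe sets, 1208 to 1811 genes differing between ages, and 3 to 10 sterol, 5 to 12 cilia, 1 to 16 mitosis, 4 to 6 chemokine, 3 to 7 interferon and 0 to 9 microglia genes. Median centring (676 genes), robust shrinkage (685), the filter on spread (674), the median of probe sets (646) and restored values (683) moved the count little. The cause was not tested in any of these. With 3 pooled arrays a group, centred values and no signal over background, a gene that was not called may still differ.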

Other observations

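Of 22 further gene groups, listed but not described above, 9 had no called member by limma, and the genes that follow were picked from the rest after their values were seen. None of the 22 groups had more than 3 called members. Of all genes 1.21% were called higher and 2.55% lower, so a single call in a group can lie near that share. The respiratory chain, for example, had 1 of 26 called, beside 3.76% of all genes. How these calls fared without 1 array is not given here. Some regulators of neural fate, drawn from more than 1 of these groups, were called lower on APdE9 sections. The nuclear factor Nfix differed by -0.35, the homeobox genes Lhx2 by -0.50 and Otx2 by -0.53, and the glial factor Olig1 by -0.43. In growth factor signalling the receptor Fgfr2 differed by -0.60, while Etv5, a transcription factor induced by the same pathway, differed by 0.51. Ccnd1, cyclin D1 of the first phase of the cell cycle, was called higher at 0.85, whereas mitotic genes were lower.

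Among stress and metabolic genes, Asns, asparagine synthetase, and Trib3, both targets of the amino acid stress response, were each called higher by 0.48. The group of amino acid stress and unfolded protein response genes had 2 of 27 called higher and 1 lower, with a median of 0.07. Enzymes called lower were Phgdh, which starts serine synthesis (-0.37), Gclc, which limits glutathione synthesis (-0.53), the glycolytic enzyme Pfkm (-0.57) and the respiratory subunit Uqcrc1 (-0.45). The insulin-like growth factor binding protein Igfbp3 was called higher at 0.93 and the imprinted gene Mest lower at -0.45. In prostaglandin metabolism Hpgd, which inactivates prostaglandins, was lower at -0.77 and Pla2g4a, which releases arachidonic acid, was higher at 0.30. All are log2 differences of neonatal cells, adjusted over 18193 genes.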
